A study of Homo sapiens with 4 samples.

Results

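The GATA factor family was followed through the 4 libraries of the series, with its members taken as the rows whose gene symbol is GATA1, GATA2, GATA3, GATA4, GATA5 or GATA6. All 6 were found among the 17894 genes that each library lists. The libraries came from H1, a human embryonic stem cell line, grown toward blood on mAGM-S3, a mouse stromal line, and sorted at day 2 for TRA-1-85, an antigen of human cells. The control library was wild-type H1 without added factor. The R-spondin2 library was wild-type H1 that had R-spondin2, a secreted enhancer of WNT signaling, in its medium (20 ng/mL) over the first day. The other 2 libraries were LGR4-/- H1 without added factor, labelled as clones 1 and 2, where LGR4 is a receptor for R-spondins. Each LGR4-/- library is therefore 1 clonal line, and control and R-spondin2 have 1 library each, so that no difference between those conditions has a replicate check. Serum-containing differentiation medium and the stromal layer were common to all libraries.

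GATA factors are transcription factors that bind DNA through a pair of zinc fingers and recognize short sites with the letters GATA at their core. They fall into a blood group and an endoderm and heart group. GATA1 drives the erythroid and megakaryocytic lineages, GATA2 maintains hematopoietic stem and progenitor cells and acts in the endothelium that gives rise to them, and GATA3 is known for T cells and trophoblast. GATA4, GATA5 and GATA6 act in endoderm, heart and extraembryonic lineages, and GATA4 and GATA6 are also switched on as pluripotent cells leave for mesendoderm.

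The stretch that the family shares is shown first, because it bears on how far short reads can be told apart between members. The following lines give the 75 coding bases of the C-terminal zinc finger, from the first to the last of its 4 cysteine codons, for 5 members, read from GENCODE release 29 transcripts. Capitals mark the bases that differ from GATA6.
GATA6: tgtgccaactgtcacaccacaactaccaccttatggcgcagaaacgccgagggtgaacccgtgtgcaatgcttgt
GATA2: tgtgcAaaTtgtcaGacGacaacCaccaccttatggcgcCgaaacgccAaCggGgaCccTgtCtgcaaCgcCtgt
GATA3: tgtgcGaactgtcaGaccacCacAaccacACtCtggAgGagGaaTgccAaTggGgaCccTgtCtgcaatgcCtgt
GATA5: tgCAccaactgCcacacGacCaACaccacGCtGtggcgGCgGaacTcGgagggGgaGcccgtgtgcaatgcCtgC
GATA1: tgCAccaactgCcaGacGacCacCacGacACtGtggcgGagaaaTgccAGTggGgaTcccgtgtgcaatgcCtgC
From GATA6, the finger of GATA2 differed at 14 of the 75 bases, that of GATA3 at 18, that of GATA5 at 19 and that of GATA1 at 20. Over all pairs of the 6 members, identity in this stretch ran from 70.7% for GATA2 and GATA5 to 85.3% for GATA4 and GATA5. The differences are spread along the finger, so that the longest run of identical bases within it was 18, between GATA1 and GATA5. Over the whole transcripts used, the longest run shared by any pair was 35 bases, between GATA2 and GATA6. The read length is not given in the sources used here, and reads no longer than that run could have been split between those 2 genes. Antisense RNAs named after GATA2, GATA3 and GATA6 were looked for and were not found among the genes listed. Since strand-specific counting is not stated, reads from overlapping antisense transcription could not be told apart from the genes themselves.

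The authors deposited FPKM, fragments scaled for transcript length and for the size of the library, and these were compared as deposited. That scaling does not assure that libraries are comparable, and rescaling them by their median ratio changed how many genes a later test called. GATA6 was at 140.57 FPKM in the control library, 186.79 with R-spondin2, 39.52 in LGR4-/- clone 1 and 61.19 in clone 2. It was the most abundant member in every library, the R-spondin2 library was the highest, and both clones lay below both wild-type libraries. Among all genes listed, GATA6 ranked 435 in the control library and 311 with R-spondin2, and 1987 and 1168 in clones 1 and 2. GATA4, its partner in endoderm and heart, was at 40.52 FPKM in control, 53.22 with R-spondin2, 8.05 in clone 1 and 15.05 in clone 2. The libraries stood in the same order for GATA4 as for GATA6.

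GATA3 was at 1.81 FPKM in control, 1.90 with R-spondin2, 0.18 in clone 1 and 0.37 in clone 2. Both clones were again below both wild-type libraries, at levels where only a few reads lie behind a value. GATA2 was at 1.48 FPKM in control, 1.85 with R-spondin2, 0.03 in clone 1 and 0.90 in clone 2. The clones were far apart for this gene, with clone 1 close to 0.

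GATA5, the third member of the endoderm and heart group, was at 0.26 FPKM in control, 0.44 with R-spondin2 and 0.22 in clone 2, and was listed at 0 in clone 1. GATA1, the erythroid factor, was at 0.22 FPKM in control, 0.15 with R-spondin2, 0.15 in clone 1 and 0.46 in clone 2. GATA1 was the only member whose highest value was in an LGR4-/- library. The sum over the family was 184.86 FPKM in control, 244.35 with R-spondin2, 47.93 in clone 1 and 78.19 in clone 2, of which GATA6 and GATA4 together made up 98.0%, 98.2%, 99.2% and 97.5%. The transcripts of the family were thus nearly all of GATA6 and GATA4.

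**Figure D1:**
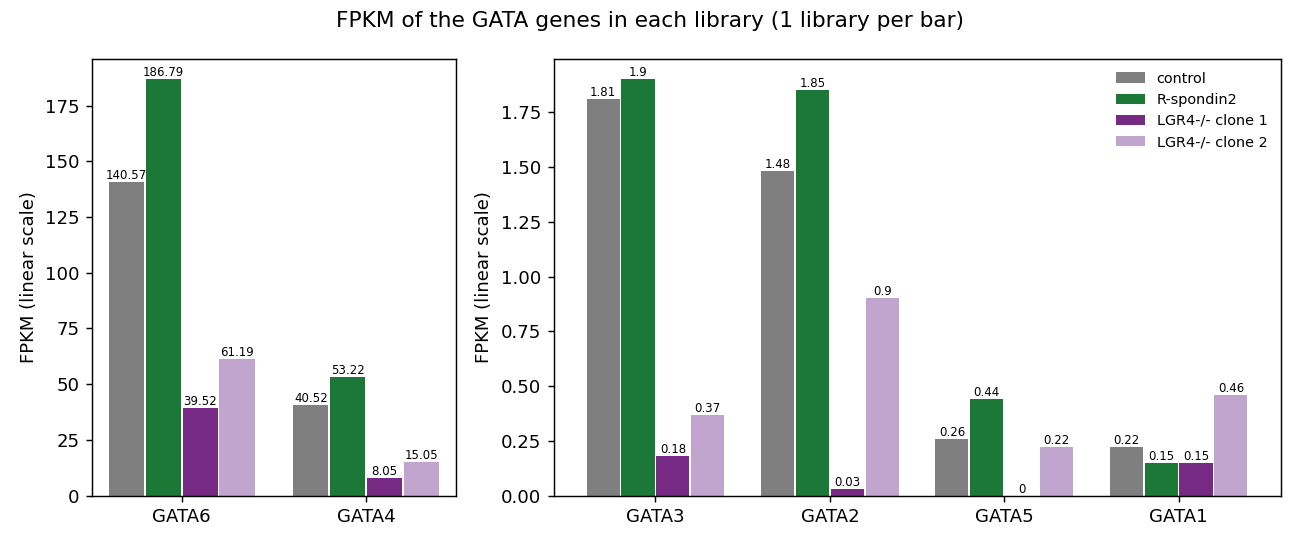
FPKM of each GATA gene (vertical axis, linear, starting at 0) in the 4 libraries, with 1 bar per library, GATA6 and GATA4 on their own scale at the left and the 4 low members at the right. GATA6 and GATA4 are highest with R-spondin2 (186.79 and 53.22 FPKM) and lowest in LGR4-/- clone 1 (39.52 and 8.05 FPKM).

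The depth behind these values was estimated from the low FPKM, which at the right depth become whole reads for transcripts of known length. Depth was searched within a preset range and with whole transcript lengths, while the effective lengths behind the FPKM are not known. The estimates lay between 8680000 reads for R-spondin2 and 8910000 for control, and at them 76.3% to 77.7% of the low values came within 0.2 of a whole read, against at most 48.2% with shuffled lengths. For GATA2, GATA3 and GATA4, which have several transcripts in the files, the shortest was used, which gives the fewest reads and the widest intervals. GATA6 then rested on 1326 to 6112 implied reads and GATA4 on 105 to 674. GATA3 rested on 43 reads in control, 44 with R-spondin2, 4 in clone 1 and 9 in clone 2. GATA2 rested on 25, 30, 1 and 15 reads in the same order, GATA5 on 6, 10, 0 and 5, and GATA1 on 3, 2, 2 and 6. The 1 read of GATA2 in clone 1 was rounded up from 0.5. All intervals are 95% intervals that cover counting error only, not the spread between cultures.

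The order of the levels within a library was firm for 2 members. GATA6 was above GATA4, and GATA4 above the next member, with exact Poisson intervals that did not overlap in any of the 4 libraries. GATA3 and GATA2 could not be ordered in control (intervals 1.32 to 2.45 and 0.97 to 2.21 FPKM) or with R-spondin2. In both wild-type libraries they stood above GATA5 and GATA1 with separate intervals for GATA2 and GATA5. In clone 1 the intervals of GATA3, GATA1, GATA2 and GATA5 overlapped from each to the next. The same held in clone 2, where GATA2 was highest of the 4. For GATA5 in clone 1, listed at 0, the exact Poisson interval reached 0.160 FPKM, and the limit of 3 reads used for a count of 0 is 0.130 FPKM.

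The targeted gene, LGR4, had 21.77 FPKM in control, 24.26 with R-spondin2, 7.40 in clone 1 and 13.95 in clone 2. Its RNA was at 34.0% of control in clone 1 and 64.1% in clone 2. All 6 GATA genes were also listed higher in clone 2 than in clone 1, as were 49.2% of all tested genes. For GATA1, GATA3 and GATA5 that difference lay within counting error. RNA from a disrupted gene need not give protein, and with 2 clones this is a description only.

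Whether a day of R-spondin2 moved the family was asked by comparing the treated with the control library. GATA6 was 1.33-fold and GATA4 1.31-fold as high with R-spondin2 as in control. Of all 6 members, 5 were higher with R-spondin2, GATA1 being the exception, and 47.8% of all genes tested were higher. On the log2(FPKM+1) scale, which understates the change of low genes, the differences were 0.41 for GATA6, 0.39 for GATA4, 0.20 for GATA2 and 0.05 for GATA3. These 4 members were among the 12697 genes that averaged 1 FPKM or more over the libraries, which was the filter. GATA1 and GATA5 did not pass and had differences of -0.09 and 0.19. None of the 4 was called at 2-fold, the rule that called 0.0473% of tested genes as higher and 0.173% as lower, nor at 1.5-fold, which called 0.536% as higher and 1.46% as lower.

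Against counting error, only GATA6 and GATA4 could be told from no difference. The log2 ratio of implied reads, scaled for depth, was 0.41 for GATA6 (interval 0.35 to 0.47) and 0.39 for GATA4 (interval 0.23 to 0.56). For GATA2 the interval ran from -0.51 to 1.13, for GATA3 from -0.57 to 0.71, for GATA5 from -0.83 to 2.52 and for GATA1 from -4.13 to 2.58, so that this depth could not show a difference. Of the 12697 tested genes, 12429 had a lower difference than GATA6 and 12374 a lower one than GATA4. With 1 library a condition, no p-value was computed.

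The LGR4-/- libraries were compared with the same single control library, so that this comparison and the one with R-spondin2 share their reference and are not independent. GATA6 was at 28.1% of control in clone 1 and 43.5% in clone 2, with a clone mean of 50.4 ± 15.3 FPKM (SD, n = 2). GATA4 was at 19.9% and 37.1% of control, with a clone mean of 11.6 ± 4.95 FPKM (SD, n = 2). The log2(FPKM+1) differences from control were -1.80 and -1.19 for GATA6 and -2.20 and -1.37 for GATA4 in clones 1 and 2. GATA4 thus stood further below control than GATA6 in each clone. The ratio of GATA6 to GATA4, 3.47 in control and 3.51 with R-spondin2, was 4.91 in clone 1 and 4.07 in clone 2. In clone 2 the counting intervals of GATA4 (-1.67 to -1.19) and GATA6 (-1.28 to -1.12) overlapped, and no interval was computed for the ratio.

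Among the low members, GATA3 was at 9.94% and 20.4% of control in clones 1 and 2, with log2(FPKM+1) differences of -1.25 and -1.04. GATA2 had differences of -1.27 and -0.38. At 2-fold in both clones, GATA3, GATA4 and GATA6 were called lower, beside 1.08% of all tested genes called lower and 0.236% called higher. GATA2 was called in clone 1, where 2.26% of tested genes were called lower and 1.26% higher, and was not called in clone 2, where 1.17% were lower and 0.331% higher. At 1.5-fold the same members were called in each clone, beside 5.45% of tested genes lower and 6.17% higher in clone 1, 3.62% lower and 3.4% higher in clone 2, and 3.09% lower and 2.61% higher in both. GATA2 and GATA3 had means of 1.07 FPKM and passed the filter only through the wild-type libraries, so that genes near this limit with low clones had to differ, and no weight rests on their share. GATA5 was listed at 0 in clone 1, and its log2(FPKM+1) difference in clone 2 was -0.05. GATA1 had differences of -0.09 and 0.26 in clones 1 and 2.

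The test that the design allows here is limma with 1 residual degree of freedom, from the pair of clones, under which the lone control library is assumed to vary as the clones do. The clone mean was lower than control by a log2(FPKM+1) difference of -1.50 for GATA6 (SE 0.25, limma adjusted p = 0.089), -1.78 for GATA4 (SE 0.33, limma adjusted p = 0.094), -1.14 for GATA3 (SE 0.22, limma adjusted p = 0.094) and -0.83 for GATA2 (SE 0.39, limma adjusted p = 0.353). No member passed an adjusted p of 0.05. By limma, 0 of the 12697 genes passed (0%), while 2342 had an unadjusted p under 0.05, GATA3, GATA4 and GATA6 among them. The call depended on the processing. After rescaling each library by its median ratio, 562 genes passed, with GATA6 at an adjusted p of 0.024 and GATA4 at 0.028 in limma. With both wild-type libraries as the comparator, 1862 genes passed and the limma adjusted p was 0.0095 for GATA6 and 0.0099 for GATA4. That fit takes the R-spondin2 library as a replicate of the untreated control. GATA6 and GATA4 differed between these libraries beyond counting error, with log2 ratios of implied reads of 0.41 and 0.39. GATA3 also came under 0.05 after rescaling and with this comparator (limma adjusted p = 0.043 and 0.011). It was tested only because its wild-type values carried it past the filter, and nothing rests on that.

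**Figure D2:**
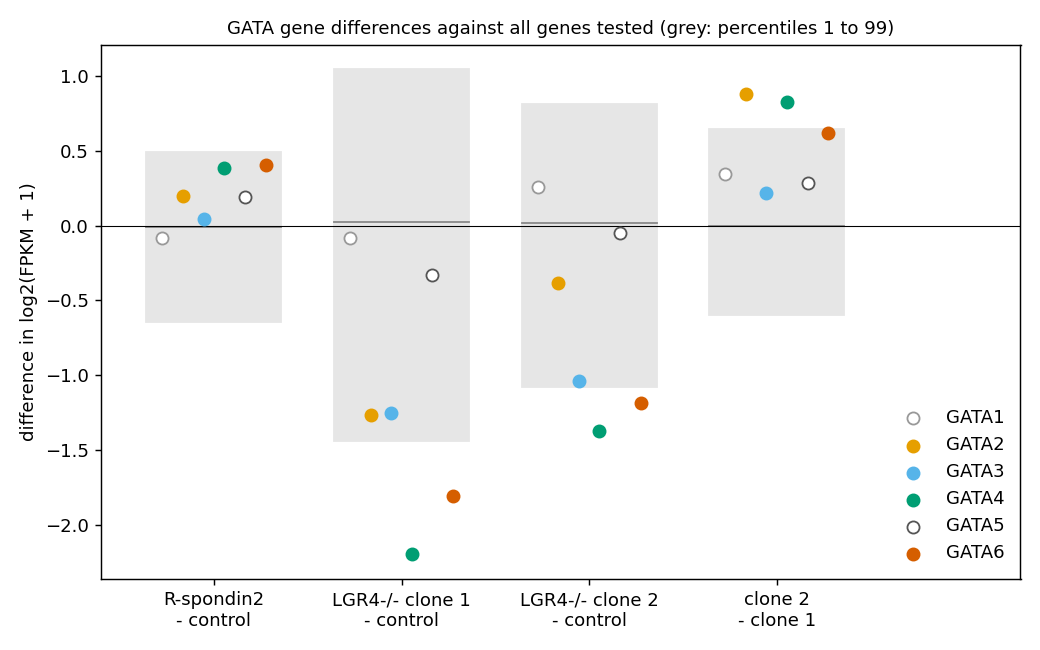
Difference in log2(FPKM + 1) (vertical axis) of each GATA gene for R-spondin2 against control, each LGR4-/- clone against control, and clone 2 against clone 1, with 1 point per gene, open where the gene did not pass the filter, and grey boxes from percentile 1 to percentile 99 of the tested genes with a line at their median. GATA4 and GATA6 lie below the grey box in both clones (-2.20 and -1.80 in clone 1) and inside it with R-spondin2.

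Counting error was small beside the differences of the abundant members. For GATA6 the log2 ratio of implied reads to control was -1.83 (interval -1.92 to -1.74) in clone 1 and -1.20 (interval -1.28 to -1.12) in clone 2. For GATA4 it was -2.33 (interval -2.64 to -2.02) and -1.43 (interval -1.67 to -1.19). GATA3 was also below control beyond counting error in both clones, with intervals of -5.36 to -1.96 and -3.46 to -1.18. For GATA2 this held in clone 1, where the upper bound was -2.03, and not in clone 2 (interval -1.74 to 0.26). For GATA5, at 6 reads in control and 0 in clone 1, the upper bound of the log2 ratio was -0.23, and in clone 2 the interval ran from -2.29 to 1.73. GATA1 could not be told from no difference in either clone (intervals -4.17 to 2.54 and -1.21 to 3.65).

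**Figure D3:**
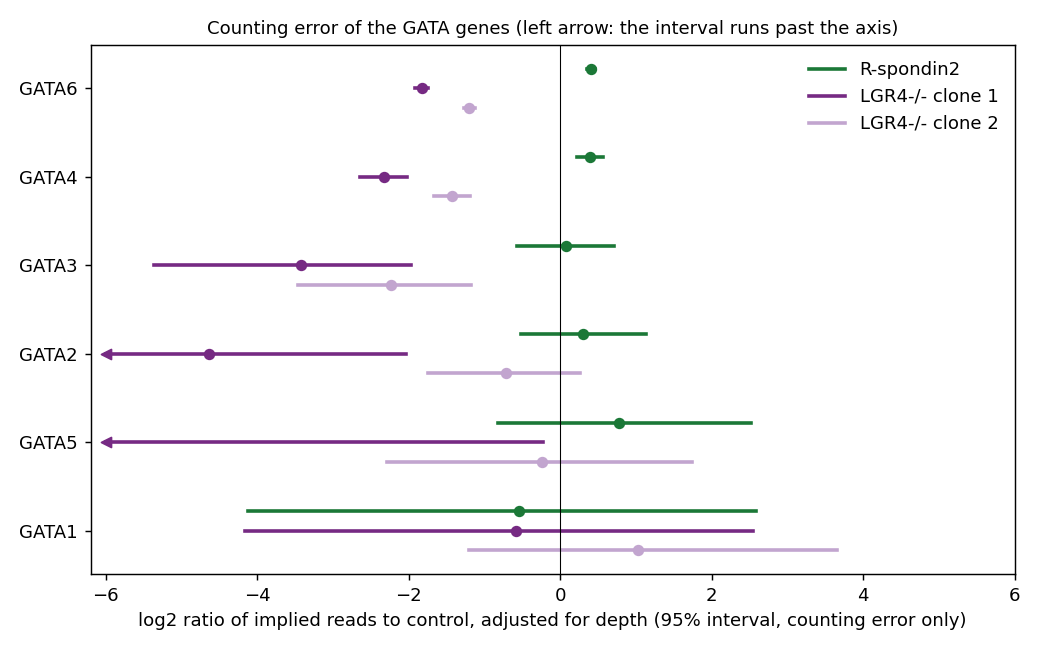
Log2 ratio of implied reads to the control library, scaled for depth (horizontal axis), for each GATA gene in the R-spondin2 library and the 2 LGR4-/- clones, with points for the ratio and bars for 95% Clopper-Pearson intervals of counting error. The bars of GATA6 and GATA4 are short and clear of 0 in all 3 libraries, while those of GATA1 span 0 in each.

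The clones also differed from each other. All 6 members were higher in clone 2 than in clone 1, where 49.2% of tested genes were higher in clone 2. GATA6 was 1.55-fold and GATA4 1.87-fold as high in clone 2, with log2 ratios of implied reads of 0.63 (interval 0.53 to 0.73) and 0.90 (interval 0.55 to 1.25). For GATA2, at 15 reads against 1, the interval was 1.23 to 9.32. For GATA3 (interval -0.65 to 3.34) and GATA1 (interval -0.88 to 4.95) this depth could not show a difference, nor for GATA5, where the lower bound was -0.11. No member reached a log2(FPKM+1) difference of 1 between the clones, though with a pseudocount of 0.1 the differences were 2.94 for GATA2, 1.68 for GATA5 and 1.16 for GATA1. On the log2(FPKM+1) scale, 0.173% of tested genes reached 1 in favor of clone 2 and 0.0788% in favor of clone 1. GATA2 came nearest with 0.88, followed by GATA4 with 0.83 and GATA6 with 0.62, and these 3 were past 1.5-fold, as were 1.35% of tested genes in favor of clone 2 and 1.06% in favor of clone 1.

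Promoter windows are shown for GATA6, GATA2 and GATA3, members that were lower in clone 1 beyond counting error, to set the letters beside the R-spondin2 and LGR4-/- values. RefSeq windows on GRCh38.p14 were matched for 4 members, GATA1, GATA2, GATA3 and GATA6, with 10 windows in all, and none for GATA4 and GATA5. Each holds the 250 bases before a transcript start. The files themselves were made on hg19, and no coordinate was carried between the builds. Searched on both strands were a GATA word, which was AGATAA, its variant ending in G, or either of these with T as the first letter. Also searched were a TCF/LEF word, named for the factors of WNT signaling, which was ACAAAG or the same with T as the first letter, and a SMAD word (CAGAC), named for factors of TGF-β and BMP signaling. Capitals mark matches. The printed window of GATA6 lies at chr18:22169339-22169588 on the plus strand, that of GATA2 at chr3:128488531-128488780 on the minus strand and that of GATA3 at chr10:8054438-8054687 on the plus strand.
GATA6: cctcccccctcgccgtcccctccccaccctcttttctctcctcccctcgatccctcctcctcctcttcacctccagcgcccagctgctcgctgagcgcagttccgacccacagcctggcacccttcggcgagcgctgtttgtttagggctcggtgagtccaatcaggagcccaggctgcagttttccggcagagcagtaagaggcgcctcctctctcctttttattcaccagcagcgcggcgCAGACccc
GATA2: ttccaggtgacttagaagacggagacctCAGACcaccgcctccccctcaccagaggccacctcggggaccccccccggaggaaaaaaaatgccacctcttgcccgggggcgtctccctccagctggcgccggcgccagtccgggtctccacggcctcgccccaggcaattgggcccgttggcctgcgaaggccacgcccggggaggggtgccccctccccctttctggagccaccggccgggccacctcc
GATA3: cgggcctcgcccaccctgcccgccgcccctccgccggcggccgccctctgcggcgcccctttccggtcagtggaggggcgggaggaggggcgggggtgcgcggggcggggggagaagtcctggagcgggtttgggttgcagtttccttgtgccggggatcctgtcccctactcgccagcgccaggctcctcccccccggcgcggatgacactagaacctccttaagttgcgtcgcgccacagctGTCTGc
The 3 windows were chosen because each holds a SMAD word, out of 1 window for GATA6, 2 for GATA2 and 6 for GATA3, and the word stood 4 to 8 bases before the start in GATA6, 218 to 222 in GATA2 and 2 to 6 in GATA3. Of the 10 windows, 5 held a SMAD word, 3 of them from GATA3, beside 38.0% of all 35116 windows of this length. A TCF/LEF word was in 3, from GATA1 and GATA3, beside 22.8% of all windows. The GATA word was in 0 of the 10, beside 22.3%. No matches overlapped. The windows had a GC content of 55.6% to 74.8%, and a match or its absence in so short a stretch says nothing about binding.

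Cofactors of the family were followed next, through lists chosen with earlier results of these data known. Of 16 listed partners, 11 passed the filter. None reached 2-fold with R-spondin2, beside 0.0473% of all tested genes called higher and 0.173% lower. Of the 11, 3 were higher with R-spondin2 and 8 lower, beside 47.8% of all tested genes higher. The median log2(FPKM+1) difference of the 11 was -0.07 with R-spondin2 and -0.14 for the clone mean, beside -0.008 and 0.02 over all tested genes. ZFPM1, or FOG1, the cofactor that GATA1 binds through its N-terminal finger, was at 5.38 FPKM in control, 6.30 with R-spondin2, and 3.53 and 3.54 in clones 1 and 2. ZFPM2, or FOG2, the partner of GATA4 in the heart, was at 1.06, 1.66, 0.29 and 0.52 FPKM and did not pass the filter. TAL1, a partner of GATA1 and GATA2 in blood cells, was at 0.05 to 0.16 FPKM in the 4 libraries, and LMO2, an adaptor between them, at 0.91 to 1.42. The ubiquitous partners LDB1 (52.27 to 57.48 FPKM) and TCF3 (69.08 to 89.21 FPKM) were the most abundant.

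RUNX1, a master regulator of definitive blood formation, was the 1 partner at 2-fold in both clones, beside 1.08% of all tested genes called lower. RUNX1 passed the filter through the wild-type libraries, so that its call carries no weight. It was at 3.96 FPKM in control, 3.71 with R-spondin2, 0.61 in clone 1 and 1.29 in clone 2, with log2(FPKM+1) differences of -1.62 and -1.11 in the clones. LYL1, a relative of TAL1, was at 2.01, 1.87, 0.44 and 0.76 FPKM, and the erythroid factor KLF1 at 2.46, 3.01, 1.02 and 0.97 FPKM. LYL1 and KLF1 also passed the filter through the wild-type libraries. The 9 other genes with GATA-type zinc fingers, which include subunits of the NuRD chromatin complex, all passed the filter. None of the 9 reached 2-fold with R-spondin2, beside 0.0473% of all tested genes called higher and 0.173% lower. None reached it in both clones, beside 0.236% called higher and 1.08% lower. Their medians were -0.05 with R-spondin2 and -0.02 for the clone mean. MTA3 differed most, at 35.56 FPKM in control, 25.79 with R-spondin2, 55.70 in clone 1 and 43.66 in clone 2.

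Genes known to respond to GATA4, GATA5 or GATA6 in endoderm and heart were examined as a list of 21, of which 15 passed the filter. With R-spondin2, 13 were higher and 2 lower, beside 47.8% of all tested genes higher, with a median log2(FPKM+1) difference of 0.16. In the clones, 13 were lower in both and 2 higher in both, beside 35.5% of all tested genes lower in both, with a median of -0.72 for the clone mean. HAND2 (3.39, 3.96, 0.75 and 1.24 FPKM), NKX2-5 and NPPA passed the filter through their wild-type values. No weight rests on their part in this count and median. At 2-fold in both clones, 2 were called lower, BMP4 and NKX2-5, beside 1.08% of all tested genes. BMP4, a ligand that patterns mesoderm, was at 67.39 FPKM in control, 98.26 with R-spondin2, 9.65 in clone 1 and 22.47 in clone 2. NKX2-5, a cardiac transcription factor, was at 3.56, 3.94, 0.34 and 1.09 FPKM, and like RUNX1 it passed the filter through the wild-type libraries, so that its place among the called genes carries no weight. The natriuretic peptide genes NPPA and NPPB, classical GATA4 targets, had the largest differences with R-spondin2. NPPB was at 14.38 FPKM in control, 23.82 with R-spondin2, 4.74 in clone 1 and 7.46 in clone 2, and NPPA at 2.00, 4.80, 0.67 and 1.08 FPKM. The 2 genes higher in both clones were FOXA2, a pioneer factor of endoderm, at 9.05, 8.44, 11.88 and 11.64 FPKM, and the laminin gene LAMB1 at 30.66, 34.56, 32.70 and 34.08 FPKM.

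Of 20 blood genes that GATA1 or GATA2 regulate, 10 passed the filter, with medians of 0.06 for R-spondin2 and 0.03 for the clone mean. With R-spondin2, 5 were higher and 5 lower, beside 47.8% of all tested genes higher. In the clones, 3 were lower in both and 5 higher in both, beside 35.5% of all tested genes lower in both. GYPB, a red cell glycophorin, was the 1 gene at 2-fold in both clones, beside 1.08% of all tested genes called lower. It was at 14.25 FPKM in control, 16.06 with R-spondin2, 1.36 in clone 1 and 3.30 in clone 2. NFE2, a megakaryocytic and erythroid factor, had the largest difference with R-spondin2, from 3.57 to 1.83 FPKM. The globin gene HBG2 was at 9.48, 10.47, 13.57 and 14.46 FPKM, and its near-identical copy HBG1 at 1.56 and 1.48 in the wild-type libraries and listed at 0 in both clones. Reads can be split between these copies in either direction, so the values of both are uncertain. KDR, a receptor of blood and vessel precursors, was at 26.80 to 34.40 FPKM in the 4 libraries.

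Of 16 trophoblast and amnion genes in which GATA2 and GATA3 are known to act, 7 passed the filter. Their medians were -0.07 with R-spondin2 and -0.19 for the clone mean. With R-spondin2, 3 were higher and 4 lower, beside 47.8% of all tested genes higher. In the clones, 4 were lower in both and 3 higher in both, beside 35.5% of all tested genes lower in both. HAND1, which is also a gene of lateral mesoderm, was at 70.05 FPKM in control, 99.85 with R-spondin2, 8.59 in clone 1 and 19.76 in clone 2. CDX2 was at 8.80, 5.89, 2.87 and 3.53 FPKM. HAND1 and CDX2 were the 2 genes of this list at 2-fold in both clones, beside 1.08% of all tested genes called lower. KRT7, a keratin of trophoblast and amnion, went the other way, at 1.60, 0.39, 4.67 and 3.37 FPKM. IGFBP3 was also higher in both clones, at 1.57, 1.18, 5.52 and 2.63 FPKM. In the same list, CGB5, TP63 and VTCN1 were at 0 to 0.13 FPKM in all 4 libraries, while KRT18 was at 279.09 to 347.41 FPKM and MSX2 at 1.30 to 8.09 FPKM.

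All 15 genes of signals that induce GATA genes, or that report those signals, passed the filter. With R-spondin2, 12 were higher and 3 lower, beside 47.8% of all tested genes higher, with a median of 0.15, and the largest differences were in BMP4 (0.54) and ID1 (-0.65). In the clones, 8 were lower in both and 4 higher in both, beside 35.5% of all tested genes lower in both, with a median of -0.38 for the clone mean. BMP2, BMP4 and MSX1 were the 3 at 2-fold lower in both clones, as were 1.08% of all tested genes, MSX1 being a target of BMP signaling at 40.42, 51.75, 5.65 and 13.51 FPKM. BMP4 is also in the endoderm and heart list, so that the called genes of these lists are not independent. ID1, another BMP target, was at 170.06 FPKM in control, 108.20 with R-spondin2, 193.31 in clone 1 and 176.22 in clone 2. LEFTY1, a target and inhibitor of NODAL signaling, was at 36.86, 43.90, 70.41 and 59.30 FPKM. None of the genes in these lists passed limma at an adjusted p of 0.05 between the clones and control.

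**Figure D4:**
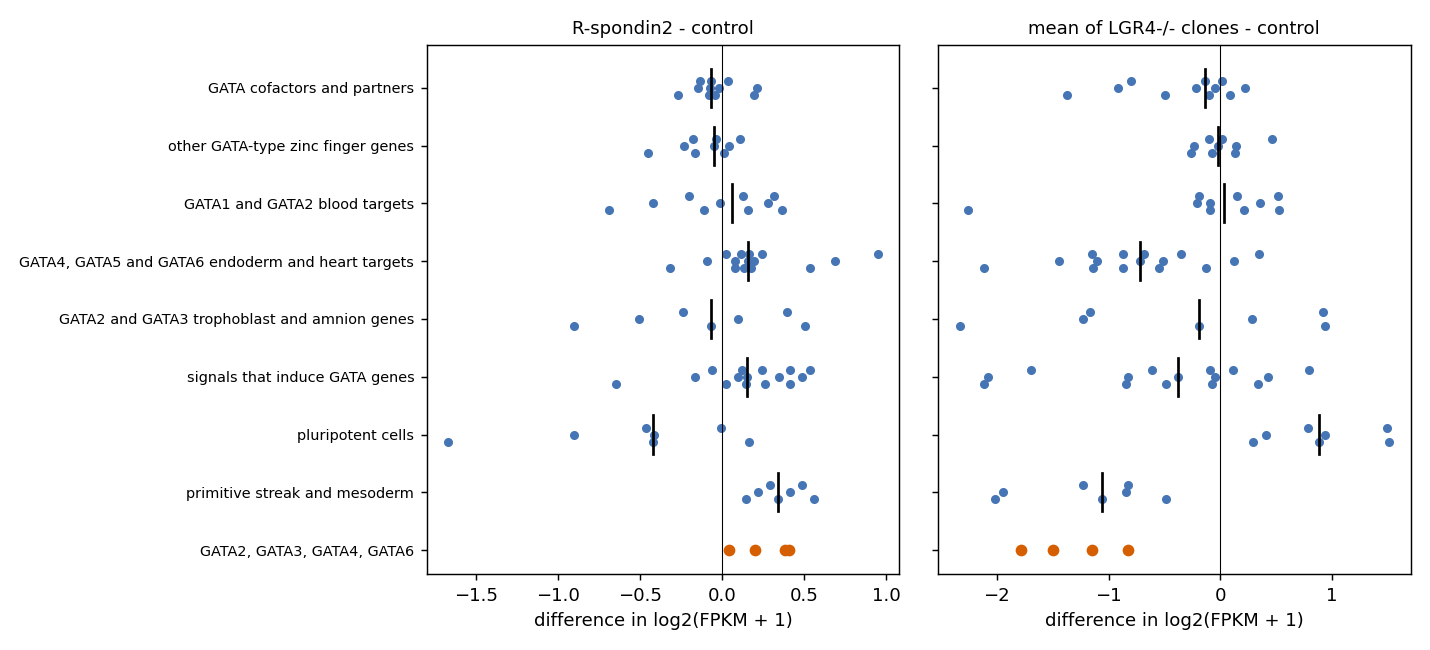
Difference in log2(FPKM + 1) (horizontal axis) of the listed genes past the filter, for R-spondin2 against control at the left and the mean of the LGR4-/- clones against control at the right, with 1 point per gene, a black line at each list's median and the 4 GATA genes past the filter in orange at the bottom. The endoderm and heart list has medians of 0.16 and -0.72, and the blood list medians of 0.06 and 0.03.

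Markers of the stages that the sorted cells can hold were set beside the GATA values, and they did not all go one way. Some of them, such as FOXA2, MIXL1 and EOMES, are also in the lists above. The summed level of 7 pluripotency markers was 1017 FPKM in control, 832 with R-spondin2, 1737 in clone 1 and 1644 in clone 2. All 7 were higher in both clones, 2 of them at 2-fold, beside 0.236% of all tested genes called higher in both. Their median log2(FPKM+1) difference was 0.88 for the clone mean, beside 0.02 over all tested genes. The summed level of 7 primitive streak and mesoderm markers was 1009, 1317, 358.5 and 559.6 FPKM in the same order. All 7 were higher with R-spondin2 and lower in both clones, beside 19.3% of all tested genes. Of 6 definitive endoderm markers, 5 passed the filter. Of these, 3 were lower in both clones, beside 35.5% of all tested genes, and 1, FOXA2, was higher in both. HHEX was lower in clone 1 and higher in clone 2. The summed level of the endoderm markers, most of it CER1, was 2466, 3544, 644 and 1087 FPKM. In bulk RNA, fewer cells that express a GATA gene and less GATA RNA in each cell cannot be told apart, and the part of these markers in the GATA values was not tested. Markers of blood cells summed to 14.2 to 17.2 FPKM, with CD34 at 0.08 to 0.22, and markers of endothelium to 36.5 to 41.6 FPKM, nearly all KDR and TEK, with CDH5 at 0 to 0.05. Neuroectoderm markers summed to 37.8 to 57.3 FPKM, most of it OTX2, with PAX6 at 0.16 to 0.47. Trophoblast and amnion markers summed to 0.83 to 5.29 FPKM. Fibroblast markers summed to 213.6 to 291.9 FPKM, highest with R-spondin2 and lowest in clone 1, with DCN at 0.03 to 0.27. Of the 5 fibroblast markers past the filter, COL1A1 and THY1 were higher in both clones, COL1A2 and LUM lower in both, and COL3A1 lower in clone 1 and higher in clone 2, and the part of these markers was not tested either.

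The genes whose pattern came nearest to each GATA gene were found by Euclidean distance over the 3 log2(FPKM+1) differences from control, among the 9029 genes that averaged 5 FPKM or more. Nearest to GATA6 was LZTS1 (distance 0.04), at 100.48 FPKM in control, 131.64 with R-spondin2, 27.61 in clone 1 and 44.45 in clone 2. NRP2, a receptor for semaphorins and VEGF (0.07), and SMAD6, an inhibitor of BMP signaling (0.10), followed. Nearest to GATA4 was WNT5A, a ligand of non-canonical WNT signaling (0.05), at 31.53, 42.52, 6.12 and 11.33 FPKM, followed by the collagen gene COL5A2 (0.12) and the plexin gene PLXNA2 (0.13). GATA3 had SLC16A3 (0.07), FAM159B (0.09) and CCL2 (0.10), and GATA2 had FLRT3 (0.17), GADD45B (0.21) and CAP2 (0.21). The log2(FPKM+1) scale understates the change of low genes, and GATA3 and GATA2 were matched to genes of at least 5 FPKM. GATA3 was at 9.94% and 20.4% of control in clones 1 and 2. SLC16A3 was at 19.74 FPKM in control, 20.86 with R-spondin2, 7.96 in clone 1 and 8.74 in clone 2. For GATA2 and GATA3, nearness therefore does not mean a like fold change. With 4 libraries and a shared control, such likeness is a description of 3 numbers per gene.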

How the data were processed

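RNA-SEQ had been performed by the submitters on TRA-1-85+ cells sorted at day 2 with the TruSeq RNA kit, 1 library per sample. The authors deposited FPKM to 2 decimals for 17894 genes with NCBI identifiers and RefSeq transcripts. The submitters' processing notes name BWA, Bowtie, RSEM and the build hg19, without versions or roles. Filters and read length are not given in the sources used here. Depth was estimated from FPKM below 0.6 of transcripts shorter than 1500 bases, with GENCODE release 29 lengths for the 8068 genes with 1 transcript of known length. Estimated reads lay between 8680000 and 8910000, and intervals (Clopper-Pearson for ratios, exact Poisson for levels) rest on that estimate.

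Values were compared as log2(FPKM+1), with a mean of at least 1 FPKM as the filter. Clones were tested against control with limma 3.58.1 (R 4.3.3, trend, two-sided, Benjamini-Hochberg over 12697 genes), checked on simulated data. The simulated control and clones had the same noise, so that the check could not show whether the real control varies as the clones do. The labels give no further cultures of a clone, so that p-values measure only the spread between these libraries. Named were the 6 GATA genes, LGR4, from each list the 3 members highest in mean FPKM and the 2 with the largest difference in each direction in each comparison, and the 3 genes nearest to each GATA gene past the filter, not all of which are printed. ZFPM2, TAL1, HBG1, HAND2, BMP2, CGB5, VTCN1, TP63, CD34, CDH5, PAX6 and DCN fell outside that rule and were chosen with their values known. The members and lists were chosen with earlier results of these data known. Python 3.11.15, numpy 2.4.6, pandas 2.3.3, scipy 1.17.1 and matplotlib 3.10.9 were used. Protein sequences were not used here.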

Additional observations from a re-analysis of the deposited data

How the results depend on the processing

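GATA2, GATA3, GATA4 and GATA6 kept their direction with R-spondin2, between the clones and in the clones against control with a pseudocount of 0.1, without a filter and after median-ratio rescaling, as did GATA4 and GATA6 with a filter of at least 5 FPKM. The difference of the clones from control was also computed by limma without the trend and with both wild-type libraries pooled as the comparator. That pool takes the treated and the untreated library as replicates. The difference was also computed without either clone and, as an alternative added once the data had been seen, with the R-spondin2 library as the comparator. These 4 genes kept the direction of the difference in each. With a pseudocount of 0.1, the clone mean minus control was -2.13 for GATA2 and -2.40 for GATA3. The limma calls were less stable. GATA6 and GATA4 passed an adjusted p of 0.05 with the 5 FPKM filter (log2 differences -1.50 and -1.78, limma adjusted p = 0.018 and 0.021). GATA6, GATA4 and GATA3, which reached the test through its wild-type values, passed after rescaling (-1.52, -1.80 and -1.15), against both wild-type libraries (-1.70, -1.98 and -1.17) and against the R-spondin2 library (-1.90, -2.17 and -1.19, limma adjusted p = 0.023, 0.029 and 0.039). Over all alternatives the limma adjusted p ran from 0.0095 to 0.370 for GATA6, 0.0099 to 0.375 for GATA4, 0.011 to 0.369 for GATA3 and 0.085 to 0.545 for GATA2. The cause was not tested. With 1 clone left out, no test was left, and the differences ran from -1.80 to -1.19 for GATA6 and from -2.20 to -1.37 for GATA4. The count of genes that limma called, 0 of those tested, was 0 also with a pseudocount of 0.1, without a filter and without the trend, and was 540 with the 5 FPKM filter, 562 after rescaling, 1862 against both wild-type libraries and 1135 against the R-spondin2 library. Genes called at 2-fold numbered 28 with R-spondin2, 167 in both clones and 32 between the clones. They numbered 254, 724 and 306 at 1.5-fold and 139, 345 and 141 with a pseudocount of 0.1, and the 5 FPKM filter left 14 with R-spondin2 and 12 between the clones. GATA2 and GATA3 do not pass the 5 FPKM filter. No paired analysis was possible because the groups compared share fewer than 2 replicate numbers. Depth limited GATA1, GATA2, GATA3 and GATA5, which rest on at most 44 implied reads in any library with the shortest transcript and at most 54 with the longest.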
